A study of Homo sapiens with 74 samples.

Results

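The cytosolic ribosomal protein genes encode the proteins that, with ribosomal RNA, build the large (60S) and small (40S) subunits of the ribosome. They were selected by symbol: RPL or RPS followed by a number, with an optional A, L or X at the end, together with RPLP0, RPLP1, RPLP2 and RPSA. The rule took 81 of the 28131 genes listed in each table, 49 of the large and 32 of the small subunit. Messenger RNA had been measured by RNA-seq of polyadenylated RNA in K562 and HEL, established human erythroleukaemia cell lines. In K562, 2 distinct libraries of wild type control cells, 3 of DOT1L-/- cells (DOT1L KO) and 3 of ENL-/- cells (ENL KO) were compared. DOT1L methylates lysine 79 of histone H3, and ENL, encoded by MLLT1, is a reader of acetylated histones found in complexes with DOT1L. In HEL, 2 control libraries were compared with 2 libraries of DOT1L knockdown (KD). No treatment or time point is named for these libraries. Neither the number of clones nor the knockdown reagent is given in the sources used here, and nothing says that the replicates came from separate cultures. The p-values therefore measure the spread between these libraries, which may be technical.

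Ribosomal protein genes are among the most highly transcribed genes of dividing cells, and subunit assembly needs their products in near-equal amounts. Most of their transcripts start at a C followed by a run of pyrimidines, the 5′ terminal oligopyrimidine (TOP) motif, through which mTOR signalling and the RNA-binding protein LARP1 control translation and stability. Red cell precursors are sensitive to a shortage of ribosomes: inherited loss of 1 copy of RPS19, RPL5, RPL11 and several other members causes Diamond-Blackfan anaemia, and loss of RPS14 contributes to the anaemia of the 5q- syndrome.

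The transcript starts of 10 members described below are shown, so that members that rose, fell or were not called can be compared with the TOP motif. Whether a start bears on a change was not tested. RPL34 had 2 listed starts, and the start shown was chosen for the longest run of C and T beginning at a C. Each sequence runs 5′ to 3′ on the strand of the gene, from 35 bases before to 15 bases from the transcript start in the RefSeq annotation of GRCh38.p14. Capitals mark the unbroken run of C and T through the start, and RPS27L has none.

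RPS12 (chr6:132814534-132814583, plus strand): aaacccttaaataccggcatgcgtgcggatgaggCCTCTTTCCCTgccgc
RPS21 (chr20:62387068-62387117, plus strand): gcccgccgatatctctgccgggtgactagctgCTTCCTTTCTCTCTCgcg
RPLP1 (chr15:69452783-69452832, plus strand): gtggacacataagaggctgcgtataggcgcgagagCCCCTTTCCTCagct
RPL27A (chr11:8682757-8682806, plus strand): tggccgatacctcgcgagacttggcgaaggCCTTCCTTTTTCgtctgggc
RPL29 (chr3:51995881-51995930, minus strand): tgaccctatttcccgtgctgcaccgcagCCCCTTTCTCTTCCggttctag
RPL13A (chr19:49487573-49487622, plus strand): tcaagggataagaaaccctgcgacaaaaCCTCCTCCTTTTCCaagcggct
RPS6 (chr9:19380222-19380271, minus strand): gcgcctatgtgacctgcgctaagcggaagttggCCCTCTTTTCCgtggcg
RPL34 (chr4:108620541-108620590, plus strand): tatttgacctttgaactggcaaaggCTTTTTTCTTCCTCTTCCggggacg
RPS3A (chr4:151099593-151099642, plus strand): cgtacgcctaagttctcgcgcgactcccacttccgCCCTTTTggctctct
RPS27L (chr15:63157463-63157512, minus strand): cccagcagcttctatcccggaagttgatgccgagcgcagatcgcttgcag

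Of the 81 members, 64 had 79 promoter windows of 300 bases in the RefSeq table. A C at the start followed by at least 4 bases that are C or T was present in 46 of the 79 windows (58.2%), against 4.07% of all 35116 windows. At least 1 such start was listed for 46 of the 64 genes. The ETS-type motif CCGGAAG, read on both strands, was in 34.2% of the members' windows and 10.3% of all windows. GGGCGG was in 55.7% and 45%, CACGTG in 5.06% and 7.26%, and TATAAA in 7.59% and 11.5%. These matches describe letters in the windows only.

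The members lie on 21 chromosomes, with 12 on chromosome 19 and 8 on chromosome 3, and 28 of them carry small nucleolar RNA (snoRNA) genes within their span. In 10 members, among them RPL15, RPS25, RPS28, RPS29 and RPL10, an exon overlaps an antisense gene, and the use of strand in counting is not stated, so reads of the overlap can belong to either gene. Values of 6 members are uncertain because their annotation is split. Among them, RPS10, RPL17 and RPL36A share their exons with read-through genes, and RPS9 and RPS18 are also listed on alternate contigs. These 6 had 11 to 426 counts per K562 library and 0 to 164 in HEL. RPS10 had 119 and 20 counts in the K562 controls, 86, 11 and 14 with DOT1L KO, and 80, 20 and 13 with ENL KO, so replicate 1 of each group stood apart, and it was not called in K562. Of the 71 members with a clean annotation, paralogs ending in L left out, the lowest in K562 was RPS29 with 1532 counts in its shallowest library. Processed pseudogenes share the sequence of many members, and reads shared with them can be split or dropped in counting.

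The paralogs with restricted expression were low. RPL10L, best known from testis, had 0 to 4 counts in the K562 libraries and 0 in every HEL library, and RPL3L, known from heart and skeletal muscle, had 0 to 7 and 0 to 2 counts. Neither passed the filter on low counts. RPL39L, another paralog enriched in testis, had 416 and 548 counts in the K562 controls and 35 and 43 in the HEL controls. In all, 79 members were tested in K562, and 76 in HEL, where members with a split annotation such as RPS9 and RPS18 failed the filter as well.

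Libraries held 15404944 to 29236703 fragment counts in K562 and 12151495 to 12811688 read counts in HEL. Levels are given in CPM, the count of a gene relative to its library's total, scaled with TMM factors within a cell line. The labels were checked first. DOT1L had 269.8 and 255.9 CPM in the K562 controls and 176.4 to 186.1 CPM after DOT1L KO (edgeR's quasi-likelihood test, Benjamini-Hochberg adjusted p = 4.09e-06). In HEL it had 97.46 and 87.39 CPM in the controls and 29.11 and 30.01 CPM in the KD (adjusted p = 2.22e-28). MLLT1 had 213.6 and 218.6 CPM in the K562 controls and 153.0 to 156.6 CPM in the ENL KO (adjusted p = 5.26e-06). All 15 genes of an erythroid marker list were above 1 CPM in each K562 group, and 14 in the HEL control. In K562 their summed level was 7291 to 7863 CPM in the control, 11680 to 12360 CPM with DOT1L KO and 9466 to 9759 CPM with ENL KO. In HEL it was 7506 to 7621 CPM in the control and 10460 to 11140 CPM after KD. The sums rest mostly on the most abundant markers, and not every marker rose. Of the 15, 14 were called higher and 1 lower with DOT1L KO, 9 and 2 with ENL KO, and 13 and 1 in HEL. Of all tested genes 51.1%, 41.0% and 55.0% were called. TFRC was lower in both knockouts, and EPB42 in the ENL KO and in HEL. Of 8 megakaryocyte markers 7 were above 1 CPM in both HEL groups, with a summed level of 1798 to 1840 CPM in the control and 1524 to 1548 CPM after KD, where 6 of 7 tested were lower. In K562 their sum was 4.185 to 6.432 CPM in the control, 39.33 to 43.29 CPM with DOT1L KO and 11.29 to 15.07 CPM with ENL KO. These K562 sums rest on few of the 8 markers. Only 1, ITGA2B, was above 1 CPM in the control and in the ENL KO. With DOT1L KO there were 2, ITGA2B (mean 24.86 CPM) and THBS1 (mean 16.24 CPM). The part of these shifts in the members' values was not tested.

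The members together took 5.786% and 5.79% of all counts in the K562 controls. Their share was 5.842%, 5.683% and 5.455% in the DOT1L KO libraries and 5.885%, 5.798% and 5.562% in those of the ENL KO. The K562 groups overlapped, with means of 5.788% ± 0.002828 (SD, n = 2), 5.66% ± 0.1945 (SD, n = 3) and 5.748% ± 0.1671 (SD, n = 3). In HEL the share was 7.109% and 7.277% in the control libraries and 8.106% and 8.155% in the KD libraries, and the groups did not overlap. The HEL means were 7.193% ± 0.1188 and 8.13% ± 0.03465 (SD, n = 2 each). Members of the small subunit went from 2.856% to 3.341% of HEL counts and those of the large subunit from 4.337% to 4.789%. A permutation test of 2 against 2 libraries cannot reach the threshold, so no p is given for these shares.

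**Figure D1:**
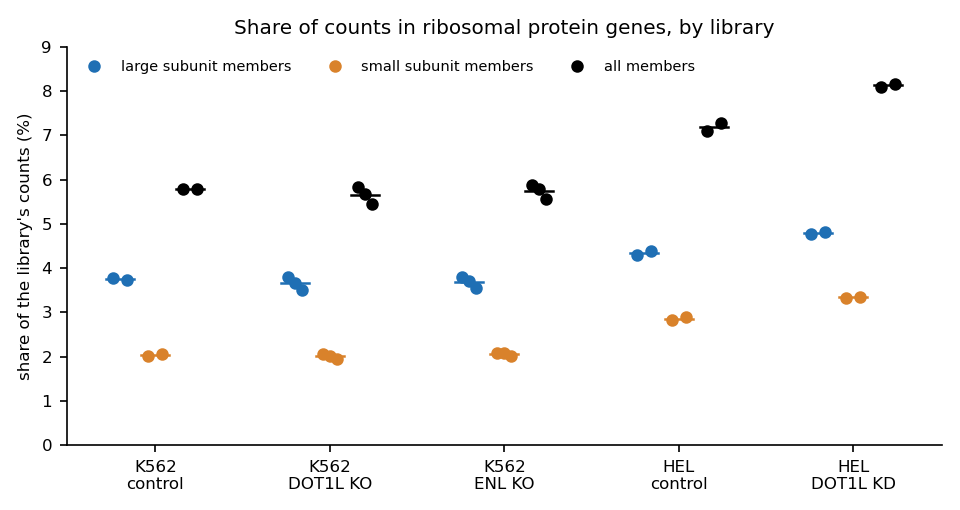
Share of all counts in the 81 cytosolic ribosomal protein genes (percent, y axis) in each library, by group (x axis), with the group mean as a line. The 3 K562 groups overlap, whereas both HEL KD libraries lie at 8.106% and 8.155%, above both HEL controls.

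Per kilobase of exon, the median over the 71 cleanly annotated members was 687 CPM in the K562 control (quartiles 378.1 and 1069) and 858.1 CPM in the HEL control. RPS2, a small subunit protein at the entrance of the mRNA channel, was highest in the K562 control with 2903 ± 167.6 CPM per kilobase (SD, n = 2). RPLP0 and RPLP1, parts of the stalk that recruits elongation factors, followed with 2083 ± 114.0 and 2079 ± 220.5, a difference within their spread. The lowest per kilobase in K562 were RPS29 with 13.35 ± 0.4253, RPL28 with 143.8 ± 10.66 and RPL15 with 173.1 ± 3.165 CPM per kilobase. These ranks depend on the exonic length listed for each gene. Before division by length, RPL15 had a mean of 1117 CPM in the K562 control. That was above the median of the 71 members, 722.2 and 683.4 CPM in the control libraries, whereas RPS29 was below it with 100.4 CPM.

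The HEL control had another order. RPS6, the small subunit protein phosphorylated by S6 kinases, led with 6216 ± 142.6 CPM per kilobase (SD, n = 2), followed by RPS25 with 4318 ± 205.8 and RPL37A with 3745 ± 84.9. RPL41, the smallest ribosomal protein, was lowest with 34.15 ± 1.677, below RPS29 with 47.99 ± 0.2695 and RPL28 with 118.4 ± 2.732. RPL41 had 669.2 and 666.9 CPM in the K562 controls but 19.25 and 20.64 CPM in the HEL controls. The levels per kilobase of the lines had a Spearman's rho of 0.662 over the 71 members, whose points share their exonic lengths and the libraries. Levels were scaled separately in each line, and K562 fragments and HEL reads were counted differently, so line and counting cannot be told apart in these levels.

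**Figure D2:**
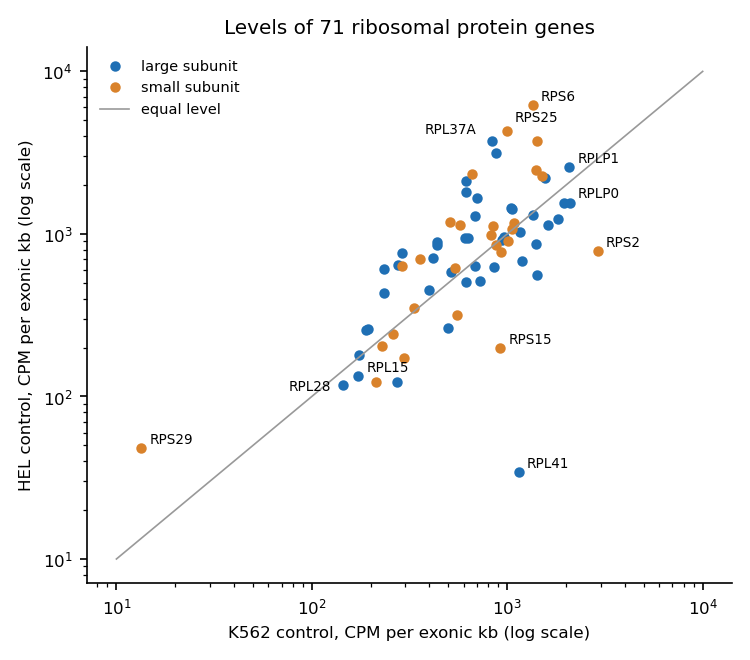
Mean level of the 71 cleanly annotated members in the K562 control (x axis) and the HEL control (y axis), in CPM per kilobase of exon on log axes, blue for the large and orange for the small subunit, with the line of equal level and extreme members named. RPL41 is lowest in HEL, at 34.15 CPM per kilobase against 1144 in K562, and RPS6 is highest in HEL at 6216.

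In the K562 DOT1L KO, 14 of the 79 tested members fell and none rose (17.7% called at an adjusted p under 0.05), while 51.1% of all 14301 tested genes were called, 26.9% higher and 24.2% lower. The members' median log2 fold change was -0.09, against 0.01 over all genes tested. Other genes of comparable abundance, the 1033 above 200 CPM, had a median of -0.10, and 423 of them fell and 127 rose. Large subunit members numbered 8 lower of 47, and small subunit members 6 lower of 32. When libraries were scaled by their totals alone, 4 members were higher and 9 lower, and with upper-quartile scaling 1 was higher and 9 lower.

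RPL29, a protein on the surface of the large subunit, had the clearest decrease. It had 550.1 and 645.1 CPM in the controls and 462.3, 493.8 and 482.4 CPM in the DOT1L KO. Every KO library lay below both controls. Its log2 fold change was -0.32 (SE 0.0687, adjusted p = 0.00165), and it was the only member of the 14 that stayed past the threshold without each library in turn and under each scaling, filter and tool tried (adjusted p 1.07e-06 to 0.0494).

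RPL13A, known for its part in the translational silencing of inflammatory transcripts, had 2216 and 2416 CPM in the controls and 2018, 2057 and 1948 CPM in the DOT1L KO. The groups did not overlap, and the log2 fold change was -0.21 (SE 0.0540, adjusted p = 0.00593). RPL5, which with RPL11 and 5S RNA binds the p53 regulator MDM2, had 673.4 and 665.0 CPM in the controls and 606.8, 605.5 and 560.7 CPM in the KO, again without overlap. It fell by 0.18 on the log2 scale (adjusted p = 0.0118). RPL13A lost its call without control 2 (adjusted p = 0.101, range over the alternatives 9.79e-05 to 0.101) and RPL5 without control 1 (0.0707, range 0.00135 to 0.0707). RPL11, the partner of RPL5, did not pass the test (log2 fold change -0.15, adjusted p = 0.0664). RPL39, a protein lining the peptide exit tunnel, had 312.9 and 294.9 CPM in the controls and 280.1, 241.3 and 229.7 CPM in the KO. All 3 KO libraries were below the controls, with a log2 fold change of -0.28 (adjusted p = 0.0414), and the call was lost without either control, KO 2 or KO 3 (highest adjusted p 0.195).

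RPS18, a small subunit protein near the decoding region, has a split annotation. It had 15.67 and 14.33 CPM in the controls and 11.54, 11.08 and 9.466 CPM in the KO. All KO libraries lay below the controls, with a log2 fold change of -0.48 (adjusted p = 0.0114), and the call was lost without control 1 (0.0902, range over the alternatives 0.0005 to 0.0902). These values cover only the reads the counting kept for this gene. RPS18 lies at 33272075 to 33276504 on chromosome 6 (GRCh38), where the 297 other genes up to 40 Mb had a median log2 fold change of -0.35. The part of that region in the value of RPS18 was not tested.

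Other members called lower included RPL24, RPS2, RPL3, RPS15, RPL14, RPL4, RPS6 and RPS15A, with log2 fold changes between -0.22 and -0.14. RPS6 had 1087 and 1151 CPM in the controls and 1024, 1039 and 968.5 CPM in the KO, all KO values being lower. The stalk proteins were not called: RPLP0 had a log2 fold change of 0.02 (adjusted p = 0.764) and RPLP2 of -0.02 (adjusted p = 0.852). RPS19 and RPS14 had log2 fold changes of -0.01 (adjusted p = 0.929) and 0.00 (adjusted p = 0.941). Leaving out a library moved the number of members called lower, to 8 (control 1), 6 (control 2), 27 (KO 1), 8 (KO 2) and 4 (KO 3), and without KO 3 there was 1 member called higher.

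In the K562 ENL KO, 6 members fell and 5 rose of 79 (13.9%), against 41.0% of all genes tested, 18.8% higher and 22.2% lower. The members' median log2 fold change was 0.01, and it was below 0 with library totals alone (-0.0023) and with upper-quartile scaling (-0.02). The members that fell were RPL37, RPL34, RPS27L, RPLP1, RPS3A and RPL4. RPS3A and RPL4 were named after their values were seen.

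RPL34, a large subunit protein, had 234.8 and 257.0 CPM in the controls and 166.9, 188.2 and 176.0 CPM in the ENL KO, while the DOT1L KO libraries had 241.8 to 274.4 CPM. All ENL KO libraries were below every other K562 library. Its log2 fold change was -0.47 (SE 0.0693, adjusted p = 0.000104). RPS3A, a small subunit protein near the mRNA exit, had 1086 and 1169 CPM in the controls and 853.5, 795.7 and 840.8 CPM in the ENL KO, with no overlap. It fell by 0.44 on the log2 scale (SE 0.0555, adjusted p = 2.7e-05).

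RPLP1, an acidic protein of the ribosomal stalk, had 1144 and 984.4 CPM in the controls and 844.4, 789.5 and 706.0 CPM in the ENL KO, all below the controls. Its log2 fold change was -0.45 (SE 0.0857, adjusted p = 0.000915). RPS27L, a paralog of RPS27 that is induced by p53, had 23.71 and 24.83 CPM in the controls and 18.6, 17.28 and 16.93 CPM in the ENL KO, again without overlap (log2 fold change -0.46, SE 0.0847, adjusted p = 0.000668). RPL4, a large subunit protein that reaches into the exit tunnel, had 2196 and 2287 CPM in the controls and 1745, 1747 and 1743 CPM in the ENL KO. The ENL KO libraries were all lower, and RPL4 fell by 0.36 on the log2 scale (SE 0.0492, adjusted p = 5.57e-05).

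RPL34, RPS3A, RPLP1, RPS27L and RPL4 each stayed past the threshold without each library and under each scaling, filter and tool tried. They lie on only 2 chromosomes, RPL34 and RPS3A on chromosome 4 and RPS27L, RPL4 and RPLP1 on chromosome 15. Other genes of these chromosomes were lower in the ENL KO as well. The 523 other genes of chromosome 4 had a median log2 fold change of -0.37, with 78.2% below 0, and the 454 of chromosome 15 had -0.52, with 88.3% below 0. On the remaining chromosomes the medians ran from -0.08 to 0.10. Within 5 Mb of each member, other genes had a median of -0.46 around RPL34, -0.45 around RPS3A, -0.47 around RPS27L, -0.54 around RPLP1 and -0.55 around RPL4. The decreases of RPL34, RPS3A and RPS27L differed from their neighbourhood's median by less than their standard errors, and those of RPLP1 and RPL4 were smaller than theirs. Whether the members moved apart from their chromosomes was not tested. DNA copy number was not analysed here, so a difference in copy number of these chromosomes and an effect of the ENL knockout cannot be told apart in these decreases. RPL9, also on chromosome 4, had a log2 fold change of -0.08 (adjusted p = 0.298), with a neighbourhood median of -0.28.

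**Figure D3:**
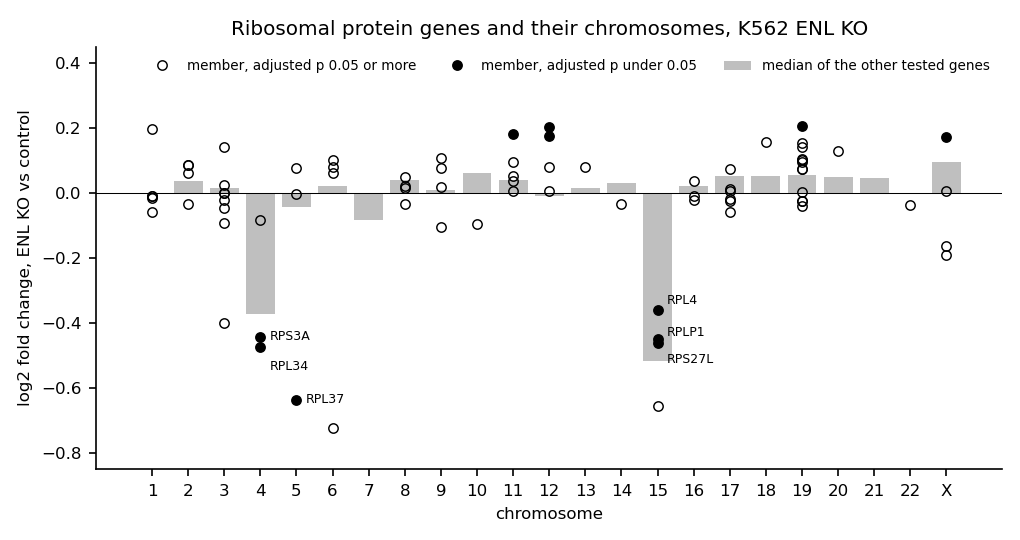
Median log2 fold change of the other genes (bars) and the value of each member (points, filled where the adjusted p is under 0.05) in the K562 ENL KO against the control (y axis), by chromosome (x axis). The bars of chromosomes 4 and 15 stand at -0.37 and -0.52, and RPL34, RPS3A, RPS27L, RPL4 and RPLP1 lie on these chromosomes.

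RPL37, a zinc-binding large subunit protein on chromosome 5, had 729.5 and 580.1 CPM in the controls and 494.3, 447.7 and 319.8 CPM in the ENL KO. The groups did not overlap, but the libraries of each spread widely. Its log2 fold change was -0.64 (SE 0.177, adjusted p = 0.0109), and without control 1 it was -0.46 with an adjusted p of 0.139 (range over the alternatives 7.69e-08 to 0.139). Other genes within 5 Mb of it had a median of -0.33.

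The 5 members that rose in the ENL KO included RPL6, RPS13, RPS26 and RPL10, with log2 fold changes of 0.17 to 0.20. RPL6, a large subunit protein, had 1082 and 1105 CPM in the controls and 1281, 1241 and 1254 CPM in the ENL KO, all of them higher (log2 fold change 0.20, adjusted p = 0.00964). None of the 5 stayed past the threshold without each library: no member was called higher without control 1, and 1 without ENL KO 2. The labels name a sequencing lane for the control and DOT1L KO libraries and none for the ENL KO, so a batch and the ENL knockout cannot be told apart.

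The knockouts were compared directly as well, since each had been set against the same controls. With DOT1L KO over ENL KO, 5 members were higher and 28 lower of 79 (41.8%), against 60.2% of all genes tested (31.8% higher and 28.3% lower), and the members' median was -0.11. The higher members were RPLP1 (log2 fold change 0.61), RPL34 (0.54), RPS27L (0.47), RPS3A (0.38) and RPL4 (0.21), and all 5 kept their calls without each library. They are the members on chromosomes 4 and 15 described above, whose other genes had medians of 0.44 and 0.46 in this comparison. RPLP1 had 1288, 1189 and 1090 CPM in the DOT1L KO and 844.4, 789.5 and 706.0 CPM in the ENL KO, with no overlap (adjusted p = 1.37e-05). Of the 28 lower members, 8 kept their calls without each library: RPL6, RPL10A, RPL13A, RPL17, RPL29, RPS6, RPS16 and RPS18. RPL10A and RPS18 lie on chromosome 6 below 40 Mb, where other genes had a median of -0.38. The split shifted with the scaling, to 7 higher and 10 lower with library totals alone and 6 higher and 9 lower with upper-quartile scaling. It also rested on single libraries, with 10 lower without DOT1L KO 3, 12 without ENL KO 2, 13 without DOT1L KO 2 and 16 without ENL KO 1.

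**Figure D4:**
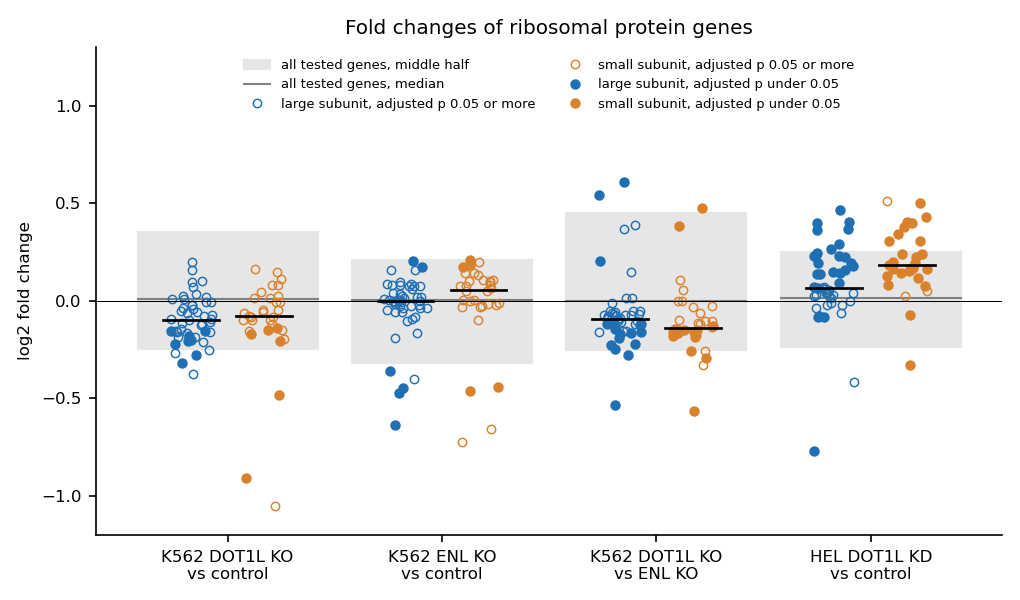
Log2 fold change of each tested member in each comparison (y axis, x axis the comparison), blue for the large and orange for the small subunit, filled where the adjusted p is under 0.05. Black lines are the subunit medians, and grey bands and lines the interquartile range and median of all tested genes. Most HEL KD points lie above 0, with a median of 0.14, whereas the median in the K562 DOT1L KO is -0.09.

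In HEL, DOT1L KD was accompanied by a broad increase. Of 76 tested members, 47 rose and 6 fell (69.7%), where 55.0% of all 12635 tested genes were called, 27.0% higher and 28.0% lower. The members' median log2 fold change was 0.14, against 0.01 over all genes. Replicates varied less in HEL (1.83% beyond counting noise, edgeR's common estimate) than in K562 (6.34%). The smallest change called among members was 0.06 on the log2 scale in HEL and 0.14 in the K562 DOT1L KO. Numbers of calls in the lines are therefore not on the same scale. Of the 1025 other genes above 200 CPM, 79.4% were called, 252 of them higher and the others lower, with a median of -0.11. In the small subunit 24 rose and 2 fell of 29, with a median of 0.18, and in the large subunit 23 rose and 4 fell of 47, with a median of 0.07. Whether the subunits differed was not tested. Without each library in turn, 40 of the 47 higher calls and 2 of the 6 lower calls, RPL27A and RPS27L, stayed past the threshold. Under every scaling, filter and tool tried as well, 30 of the 47 and the same 2 did. The lower calls numbered 10 without control 1, 3 without KD 1 and 2 without KD 2.

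RPS12, a small subunit protein, rose most among the members past the threshold. It had 1227 and 1264 CPM in the controls and 1779 and 1749 CPM in the KD. Both KD libraries were far above the controls, and the log2 fold change was 0.50, or 1.42-fold (SE 0.0270, adjusted p = 2.26e-22). RPS21, another small subunit protein, had 822.7 and 847.5 CPM in the controls and 1123 and 1122 CPM in the KD, without overlap (log2 fold change 0.43, adjusted p = 4.12e-19). RPS28, at the mRNA exit of the small subunit, had 164.2 and 161.4 CPM in the controls and 215.1 and 216.1 CPM in the KD, both higher (log2 fold change 0.41, adjusted p = 1.37e-13). RPSA, also known as a laminin receptor, had 904.9 and 918.5 CPM in the controls and 1202 and 1201 CPM in the KD, again higher in both (log2 fold change 0.40, adjusted p = 3.26e-18).

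All 3 stalk proteins rose in HEL, where 47 of 76 members and 27.0% of all genes were called higher. RPLP1 had 1327 and 1316 CPM in the controls and 1799 and 1855 CPM in the KD, with both KD libraries above the controls (log2 fold change 0.47, SE 0.0268, adjusted p = 3.58e-21). RPLP0, the scaffold of the stalk, had 1949 and 1995 CPM in the controls and 2325 and 2350 CPM in the KD (log2 fold change 0.24). RPLP2 had 581.5 and 558.5 CPM in the controls and 659.7 and 675.0 CPM in the KD (log2 fold change 0.23). Neither gene's groups overlapped.

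RPS19, the member most often mutated in Diamond-Blackfan anaemia, had 1217 and 1218 CPM in the HEL controls and 1482 and 1532 CPM in the KD, both higher (log2 fold change 0.31, adjusted p = 3.01e-14). RPS14 had 710.0 and 704.2 CPM in the controls and 784.1 and 832.2 CPM in the KD, also without overlap (log2 fold change 0.19, adjusted p = 1.59e-07). The call of RPS14 held without each library but not under every alternative (highest adjusted p 0.0579). Of the members on a list of Diamond-Blackfan genes, 11 rose and 1 fell of 18 tested in HEL (66.7%, median 0.18), near the 69.7% of all members and above the 55.0% of all genes. In K562 none rose and 3 fell of 19 with DOT1L KO (15.8%, against 51.1% of all genes), and 1 rose and none fell with ENL KO (5.26%, against 41.0%).

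RPL27A, a large subunit protein, went the other way in HEL. It had 800.1 and 824.6 CPM in the controls and 479.2 and 474.9 CPM in the KD, so both KD libraries were far lower. Its log2 fold change was -0.77, to 0.587 of the control level (SE 0.0291, adjusted p = 8.78e-29). In K562 RPL27A was not called, with log2 fold changes of -0.05 after DOT1L KO (adjusted p = 0.572) and 0.04 after ENL KO (adjusted p = 0.729). RPS27L had 49.85 and 52.31 CPM in the HEL controls and 41.35 and 39.86 CPM in the KD, both lower (log2 fold change -0.33, adjusted p = 2.52e-05). Other members called lower in HEL included RPL15, RPL12 and RPL38, each with a log2 fold change of -0.08, and none of these kept its call without each library.

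**Figure D5:**
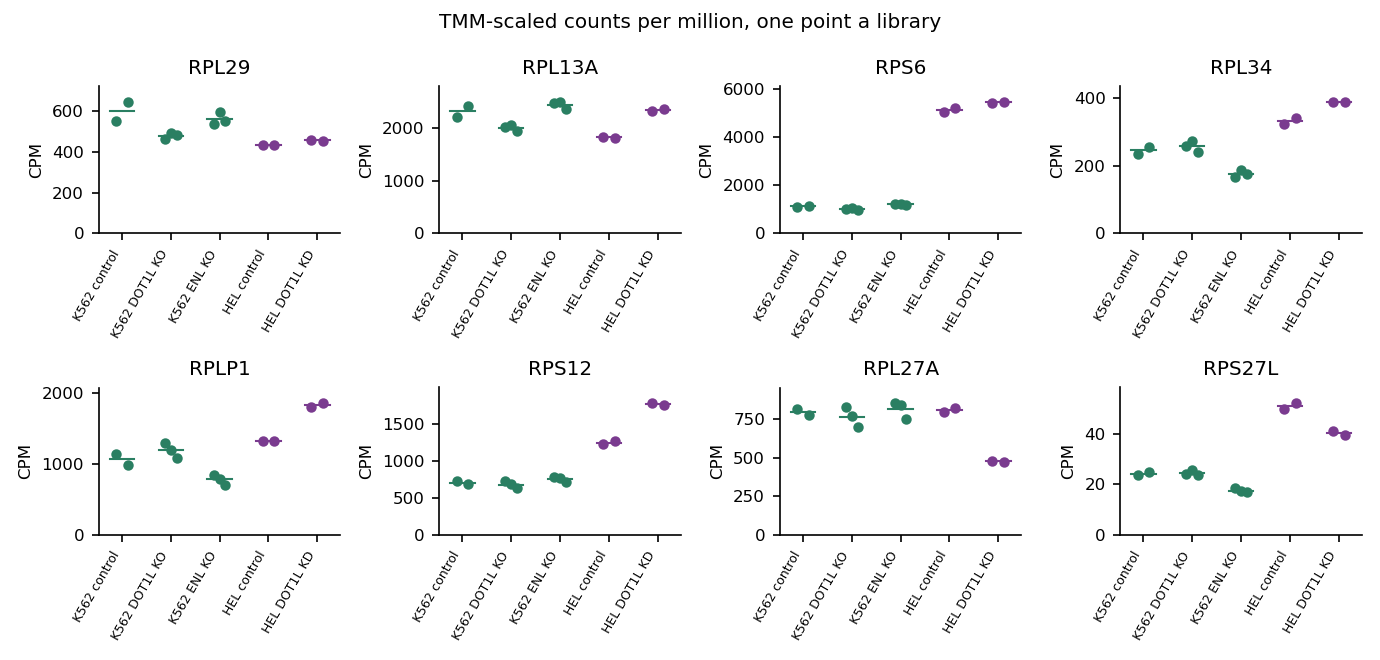
TMM-scaled level in CPM (y axis, from 0) of 8 members in each library by group (x axis), with group means as lines. RPS12 and RPLP1 are higher and RPL27A and RPS27L lower in both HEL KD libraries, and RPL34, RPLP1 and RPS27L are lowest in the 3 ENL KO libraries of K562.

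Most members have short transcripts, with a median exonic length of 970 bases against 3329 for all tested genes. In HEL the 622 other genes under 1 kb had a median log2 fold change of 0.17, with 235 higher and 68 lower, and the 5155 other genes over 4 kb had -0.05. The 128 other genes above 200 CPM and under 2 kb had a median of 0.02. When the trend of fold change with exonic length was removed, 32 members were higher and 18 lower, with a median of 0.06. Whether length, through RNA quality or library preparation, plays a part was not tested. Members with a TOP-type start numbered 29 higher and 3 lower of 44 in HEL (median 0.14), and members with a listed start but none of that type 7 higher and 2 lower of 17 (median 0.04). In the K562 DOT1L KO 7 of 46 and 3 of 17 were lower. Of the snoRNA hosts 15 rose and 3 fell of 28 in HEL (median 0.07), and of the other members 32 rose and 3 fell of 48 (median 0.16). None of these divisions was tested against the other.

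Whether DOT1L depletion differed between the lines was tested as the interaction of line and depletion, HEL minus K562. It was past the threshold in 45 members upwards and 2 downwards of 79 (59.5%), with a median of 0.23. Of all 15367 tested genes 38.9% were past it, 19.8% upwards and 19.1% downwards. Of the 1033 other genes above 200 CPM in the K562 control 56.5% were past it, 408 upwards and 176 downwards (median 0.12). Of the 152 of these under 2 kb the share was 60.5%, with 71 upwards and 21 downwards (median 0.19), near that of the members. Mitochondrial ribosomal proteins numbered 30 upwards and 2 downwards of 75 (42.7%, median 0.22). Of the 45 members called upwards, 22 kept their call without each library, and 27 members were called upwards without HEL control 1 and 29 without HEL KD 2. RPL13A, RPL14, RPS2, RPS6, RPS15 and RPS15A were called lower in the K562 DOT1L KO and higher in the HEL KD. The HEL call of RPS6 was lost without KD 1 or KD 2 (highest adjusted p 0.17), and with the length trend removed its HEL value turned to -0.0446. RPS2 and RPS15 also lost their HEL calls when that trend was removed (adjusted p 0.157 and 0.0527, the highest over their alternatives). In K562, RPL29 was the only lower member to keep its call without each library, so the K562 call of each of these 6 was lost without at least 1. No member was called in the same direction in both lines. As none was called higher in the K562 DOT1L KO, only lower calls could be shared, and these numbered 14 in K562 and 6 in HEL. The same and opposite calls were not counted over all tested genes, so these overlaps cannot be read as particular to the members.

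RPL13A had 1831 and 1816 CPM in the HEL controls and 2330 and 2362 CPM in the KD, the reverse of its K562 order (interaction 0.59, SE 0.0672, adjusted p = 4.57e-07). RPL14, a large subunit protein, had 1325 and 1396 CPM in the K562 controls and 1235, 1252 and 1175 CPM in the DOT1L KO, and in HEL 811.9 and 858.6 CPM in the controls and 1007 and 1033 CPM in the KD. The groups did not overlap in either line (interaction 0.46, adjusted p = 1.23e-05). RPS15, a small subunit protein needed for export of that subunit, had 619.9 and 647.5 CPM in the K562 controls and 595.4, 553.6 and 539.9 CPM in the DOT1L KO, and in HEL 135.0 and 137.0 CPM in the controls and 159.9 and 158.3 CPM in the KD. Its interaction was 0.42 (adjusted p = 0.00015) and that of RPS15A, another small subunit protein, 0.36 (adjusted p = 0.000156). RPL27A was lower by the interaction, at -0.70 (adjusted p = 1.13e-06), as was RPS27L, at -0.33 (adjusted p = 0.0229), which lost its call without K562 control 1, HEL control 2 or HEL KD 2. RPL13A and RPS15, like RPS19 and RPS28, lie on chromosome 19. Its 1130 other genes had an interaction median of 0.22, against 0.01 over all tested genes. In HEL the 923 other genes of that chromosome had a median log2 fold change of 0.11. The part of the chromosome in these members' values was not tested. Cell line goes together with knockout against knockdown and with fragment against read counting, and these cannot be told apart.

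Ribosomal proteins and paralogs whose symbols fall outside the rule were examined in the same fits. RACK1, a signalling scaffold on the small subunit, fell in the K562 DOT1L KO (log2 fold change -0.25, adjusted p = 0.00905) and in HEL (-0.14). Its K562 call was lost without control 1 (adjusted p = 0.104, range over the alternatives 2.61e-05 to 0.104). FAU, which encodes a ribosomal protein fused to a ubiquitin-like protein, rose in HEL (0.18), a call lost when the length trend was removed (adjusted p up to 0.327), and was not called in K562. RPL22L1, a paralog of RPL22, was called lower in every comparison with a control, at -0.52 with DOT1L KO, -0.72 with ENL KO and -0.28 in HEL (adjusted p = 0.000155, 1.75e-05 and 0.000172). The K562 comparisons share their controls. RPL22 had log2 fold changes of -0.08 (adjusted p = 0.457), -0.01 (adjusted p = 0.956) and, in HEL, 0.09 (adjusted p = 0.0119), a call lost without control 1 or KD 1 (highest adjusted p 0.318).

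Related lists were counted in the same way, with the share called to be read against 51.1% of all genes with DOT1L KO, 41.0% with ENL KO and 55.0% in HEL. A list of translation factors and other genes with TOP-type transcripts, such as the histone chaperone NAP1L1, TPT1 and HNRNPA1, numbered 0 higher and 4 lower of 15 (26.7%) in the DOT1L KO, the initiation factor EIF4B being lowest (-0.32). With ENL KO it numbered 2 and 0 (13.3%), NAP1L1 and EIF3L, and in HEL 5 and 4 of 14 (64.3%), where the elongation factor EEF1B2 rose by 0.29 and NAP1L1 fell by 0.38 on the log2 scale. Ribosome biogenesis factors numbered 5 higher and 14 lower of 45 after DOT1L KO (42.2%), 11 and 4 with ENL KO (33.3%), and 12 and 12 in HEL (53.3%), each share below that of all genes. In HEL RRN3, which links growth signals to RNA polymerase I, had a log2 fold change of -1.51. Of 11 regulators of ribosomal genes and translation, 3 were higher and 3 lower with DOT1L KO, 1 and 2 with ENL KO, and 5 and 3 in HEL. MYC, a transcription factor that drives many ribosomal genes, fell in each comparison with a control, by 0.49, 0.66 and 0.20 on the log2 scale, and was higher in the DOT1L KO than in the ENL KO (0.18). Mitochondrial ribosomal proteins numbered 5 higher and 20 lower of 75 after DOT1L KO (33.3%), 13 and 8 with ENL KO (28.0%), and 35 and 9 in HEL (58.7%, median 0.18).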

How the data were processed

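Per the file headers, the authors deposited fragment counts per gene for K562 and read counts per gene for HEL, as whole numbers. The labels' protocols describe dUTP stranded libraries of polyadenylated RNA. The submitters' processing notes name HISAT2 2.1.0, featureCounts 1.6.1, fastp 0.13.1, Bowtie2 2.3.4.1, deepTools, hg38 and hg19 without roles. Of 74 samples, the 13 RNA-seq samples were used. K562 control columns 2 and 3 were identical in every gene and counted as 1 library, which left 8 K562 libraries in place of the 9 planned.

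Genes were filtered with filterByExpr (minimum count 10, minimum total 15), scaled by TMM and tested with edgeR 4.0.16's quasi-likelihood test in R 4.3.3, K562 and HEL being fitted separately, with a joint fit of 9 libraries for the interaction. Benjamini-Hochberg adjustment ran over every gene tested, and the threshold was 0.05. The scripts were tested on simulated data. The chi-square between replicates, per degree of freedom, was 4.05 to 9.64 in K562 and 1.31 and 1.45 in HEL, where 1 is counting noise alone. The members, gene lists and tests were chosen with earlier results of these data known. Members named for their changes were the 4 largest in each direction per comparison with a control. They were taken from called members with at least 5 CPM and groups without overlap. The absence of overlap stated for them therefore follows from this choice and is no further result. Also named were the 4 with opposite calls and the smallest interaction p, a set of well-known members and paralogs, and the 3 highest and lowest per kilobase. RPL3, RPL4, RPL9, RPL10, RPL24, RPL38, RPS3A, RPL10A, RPL17, RPS16 and, for the interaction, RPS2 were named outside this rule, after their values were seen. Some genes that the rule takes are not reported here. Alternatives were other scalings (library totals, upper quartile, RLE, TMM without members), no filter, DESeq2 1.42.0, removal of the exonic length trend, a replicate block, both identical columns kept and each library left out.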

Additional observations from a re-analysis of the deposited data

Results flagged for a closer look

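The difference between the DOT1L effect in HEL and in K562 was past the threshold in 26 of the named members, by the interaction term of edgeR's quasi-likelihood test (HEL minus K562, log2 scale). It was below 0 in RPL27A (-0.70) and RPS27L (-0.33). It lay between 0.17 and 0.25 in RPL4 (0.17), RPL6 (0.18), RPS14 (0.22), RPL5 (0.23), RPLP0 (0.24) and RPS6 (0.25). It was 0.27 in RPLP2, 0.27 in RPS28, 0.28 in RPS25, 0.30 in RPL41, 0.33 in RPLP1, 0.33 in RPSA, 0.33 in RPS19, 0.35 in RPL39, 0.36 in RPS15A and 0.39 in RPS2. The highest values were 0.40 in RPL29, 0.42 in RPS15, 0.43 in RPS21, 0.45 in RPL37, 0.46 in RPL14, 0.57 in RPS12, 0.59 in RPL13A and 0.59 in RPS29. RPL41 had 19.25 and 20.64 CPM in the HEL controls and 24.26 and 23.67 CPM in the KD, so its value rests on lower counts in HEL than those of the others. Of the 26, 11 lost the call without at least 1 library: RPL37, RPL6, RPL4, RPLP2, RPL39, RPS27L, RPL5, RPL41, RPS14, RPLP1 and RPS25. RPL37 and RPL6 lost it without any of 7 libraries, with adjusted p of 0.0847 to 0.214 and 0.0753 to 0.185. RPL4 and RPLP2 lost it without any of 6, with adjusted p up to 0.163 and 0.128. Without K562 DOT1L KO 3 the values of RPL37, RPL6 and RPLP2 came to 0.28, 0.11 and 0.18, and without K562 control 1 that of RPL37 came to 0.29. Without K562 control 2 that of RPS19 came to 0.22. RPL13A, RPS15, RPS19 and RPS28 lie on chromosome 19, whose other genes had an interaction median of 0.22. Cell line, depletion method and counting cannot be told apart in any of the values of the 26 members.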

How the results depend on the processing

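Over the named members and a few other genes, such as RACK1, DOT1L and MLLT1, 3657 values under an alternative kept their side of the threshold. The call was lost with its direction kept in 222 and gained in 162. Direction was compared only for values called in the original fit, of which 2 reversed. With the exonic length trend removed, RPS13 and RPS6 in HEL came to -0.0663 (adjusted p = 0.0506) and -0.0446 (adjusted p = 0.125). For the K562 DOT1L KO, members called higher and lower (0 and 14) became 4 and 9 with library totals alone, 1 and 9 with upper-quartile scaling, and 2 and 25 with both identical control columns kept. Lower calls were 28 without the low-count filter and 25 without the length trend. Without 1 library, 0 to 1 were higher and 4 to 27 lower (median -0.13 to -0.04). For the ENL KO (5 and 6), leaving out 1 library gave 0 to 7 higher and 5 to 8 lower. With replicate 1 of all K562 groups left out, chosen after seeing the data, 1 member was higher with DOT1L KO and 0 with ENL KO. Between the knockouts (28 lower), 10 were lower with library totals, 9 with upper-quartile scaling and 10 to 36 without 1 library. For HEL (47 and 6, median 0.14), lower calls were 2 with library totals and 2 with upper-quartile scaling (medians 0.18 and 0.22), 18 without the length trend (median 0.0579) and 2 to 10 without 1 library (higher 42 to 52, median 0.12 to 0.16). Relative to other genes within 5 Mb, also chosen after seeing the data, the HEL median was 0.0946. The interaction (45 and 2, median 0.23) gave 1 lower with DESeq2, and 27 to 58 higher and 1 to 2 lower without 1 library (median 0.16 to 0.28). Counted per exonic kilobase, the members' share was 14.88%, 14.28% and 14.6% in K562 (control, DOT1L KO and ENL KO), and 19.98% and 21.77% in the HEL control and KD. The causes of these shifts were not tested.

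With the replicate number as a block, 6 members were higher and 29 lower with DOT1L KO, 27 higher and 8 lower with ENL KO, 51 lower between the knockouts, 46 higher and 6 lower in HEL and 56 higher and 2 lower in the interaction. Same-numbered K562 libraries had correlated deviations of 0.053 to 0.22 in 7 pairs, and 8 of 8 libraries correlated best with their own number, a hint from the data only. Not every pair passed 0.1, so the numbers were not taken to pair the samples. Total counts limit RPL10L, RPL3L and the members with split annotation, whose values rest on few counts.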
